A study of Mus musculus with 12 samples.

Results

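Phlpp1 and Phlpp2 encode the PHLPP phosphatases, and Akt1 and Akt2 encode kinases that PHLPP proteins dephosphorylate. These 4 genes were taken by their symbols from the deposited table of 49315 genes, and all 4 were among the 16565 genes with enough counts to be tested. RNA was sequenced from primary epiphyseal chondrocytes, the cartilage cells at the ends of growing long bones, of mice labelled female and 5 days old. The 12 libraries fell into 4 genotypes with 3 libraries each, namely the knockout of both phosphatases (Phlpp1/2 KO), the Phlpp1 knockout (Phlpp1 KO), the Phlpp2 knockout (Phlpp2 KO) and wild type (WT). The labels gave the strain as C57BL6 for all Phlpp1 KO and WT libraries and for 2 of the 3 Phlpp2 KO libraries. They gave C57BL7 for Phlpp2 KO 3 and C57BL8, C57BL9 and C57BL10 for Phlpp1/2 KO 1, 2 and 3. These strain numbers rise by 1 from library to library in the listed order, and the labels do not say whether they stand for different strains. Cells of every genotype had been released with collagenase II, frozen, thawed and then plated in serum-containing medium for a night before RNA extraction. The labels do not say which exons were deleted, whether a library came from 1 animal or a pool, or that replicates were separate animals. P-values therefore measure only the spread between these libraries.

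AKT kinases carry growth factor signals from phosphoinositide 3-kinase to the control of metabolism, survival and growth. They reach full activity once a serine in the hydrophobic motif near the end of the protein has been phosphorylated, and PHLPP1 and PHLPP2 remove that phosphate. PHLPP proteins also act on protein kinase C and S6 kinase, and PHLPP1 is known in mouse cartilage for limiting chondrocyte proliferation. The questions asked here were whether the transcript of one phosphatase was higher where the other had been removed, and whether transcripts of the target kinases differed. Transcript counts do not measure phosphorylation.

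The target serine lies in the last of 13 coding exons of both Akt1 and Akt2. The 30 coding bases around it are shown on the coding strand of mm10, 5′ to 3′, because they hold the site on which both phosphatases act and show how alike the kinase transcripts are there. Capitals mark the codon of the target serine, which is residue 473 of AKT1 and residue 474 of AKT2.
Akt1 (chr12:112654713-112654742, minus strand): ccgcacttcccccagttcTCCtactcagcc
Akt2 (chr7:27638097-27638126, plus strand): acgcacttcccccagttcTCCtactcagcc
Akt1 and Akt2 differed at 1 of these 30 bases. The serine codon was the same in both.

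Runs of identical bases shared by the paralogs were short. Over the whole reference transcripts, untranslated ends included, the longest stretch of identical bases was 32 between Akt1 and Akt2 and 17 between Phlpp1 and Phlpp2. The AKT1 and AKT2 proteins were identical at 82.0% of aligned residues, and the PHLPP1 and PHLPP2 proteins at 54.2% of 1295 aligned residues. The coding sequence ran to 1687 codons for Phlpp1 and to 1355 for Phlpp2. No other gene shared exon bases with any of the 4 genes. A near-identical copy, taken as at least 95% identity over at least 150 bases, was found for Akt2 alone. This was the pseudogene Akt2-ps, which matched 1449 bases at 98.62% identity and held 39 to 69 counts per library, or 0.675% to 1.00% of the Akt2 counts, so that the pseudogene's own counts were small beside those of Akt2.

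On mm10, Phlpp1 (ENSMUSG00000044340) occupies chr1:106171752-106394250 on the plus strand, with 18 merged exons of 6752 bases in all. Phlpp2 (ENSMUSG00000031732) occupies chr8:109868542-109944671 on the plus strand, with 19 merged exons of 8449 bases. Akt1 (ENSMUSG00000001729) occupies chr12:112653821-112674884 on the minus strand, with 16 merged exons of 4098 bases. Akt2 (ENSMUSG00000004056) occupies chr7:27591552-27640826 on the plus strand, with 23 merged exons of 7131 bases. These exon lengths were used wherever levels of different genes are compared.

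Sequencing depth lay between 21706337 and 33115345 counts per library, and a single count corresponded to 0.0295 to 0.0453 CPM, the count per 1000000 counts of the scaled library total. Chondrocyte markers were abundant in every library, with 9 of 10 listed markers summing to 29955 to 54330 CPM. Markers of red blood cells and adipocytes averaged under 1 CPM each. Markers of some other cell types were present. The 6 fibroblast and tendon markers summed to 724 to 1115 CPM per library and the 6 osteoblast markers to 247 to 677 CPM. The 13 skeletal muscle markers varied most, from 9.01 CPM in a Phlpp2 KO library to 133 CPM in a WT library. Of the 12 libraries labelled female, Xist, the RNA of the inactive X chromosome, stood at 3.77 CPM in Phlpp1/2 KO 1, beside 109 CPM of 4 Y-linked transcripts, and at 13.9 CPM in Phlpp1 KO 1, beside 0 of those transcripts. The other 10 libraries held 278 to 587 CPM of Xist and at most 1.23 CPM of Y-linked transcripts. Changes that rest on these libraries are therefore also given without them. In bulk RNA, fewer cells of a type and less RNA per cell cannot be told apart.

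In WT chondrocytes the kinases were far more abundant than their phosphatases. Per kilobase of exon, WT libraries averaged 95.5 CPM of Akt1, 32.6 of Akt2, 5.87 of Phlpp1 and 3.01 of Phlpp2. On that scale Akt1 stood at the 97.2 percentile of 16524 genes, Akt2 at 90.4, Phlpp1 at 60.1 and Phlpp2 at 46.1. Among the 19 listed genes of the PP2C family, the class of metal-dependent serine/threonine phosphatases to which PHLPP belongs, Phlpp1 ranked 10th and Phlpp2 13th. Neighbours in that order were close, since Tab1, a pseudophosphatase of the family, had 6.61 CPM per kilobase and Ppm1l, a phosphatase of stress kinases, had 5.52, on either side of Phlpp1. The SD of Phlpp1 itself was 0.645 CPM per kilobase over the 3 WT libraries. Pdp1, a mitochondrial phosphatase of pyruvate dehydrogenase, had 3.11 CPM per kilobase, above Phlpp2 by less than the SD of 0.337 for Phlpp2.

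Phlpp1 was depleted in both genotypes labelled as lacking it, but its transcript remained well above 0. It had 8.12, 7.71 and 8.83 CPM in Phlpp1/2 KO 1 to 3 and 9.25, 9.46 and 8.77 CPM in Phlpp1 KO 1 to 3. Phlpp2 KO libraries had 44.6, 37.9 and 41.6 CPM and WT libraries had 43.8, 35.1 and 40.03 CPM. Every library labelled as lacking Phlpp1 lay below every library labelled as keeping it, which held in 0.634% of all tested genes, and the Phlpp2 KO and WT values overlapped. Values lay wholly below those of WT in 10.3% of all tested genes for Phlpp1/2 KO and in 13.3% for Phlpp1 KO. Phlpp1/2 KO libraries averaged 20.7% of the WT mean and Phlpp1 KO libraries 23.1%. Between 224 and 299 counts per library stood behind these remaining levels, so they were not a matter of a few reads. The counts are per gene, and which exons the remaining reads came from was not analysed here.

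The fall in Phlpp1 was a log2 fold change of -2.11 ± 0.10 (SE, n = 3 each) in Phlpp1 KO against WT, with an adjusted p of 7.11e-08 by edgeR's quasi-likelihood test, adjusted over all tested genes by the Benjamini-Hochberg method. The change in Phlpp1/2 KO against WT was -2.27 ± 0.10 (SE, edgeR adjusted p = 3.45e-08). Without the low-Xist libraries Phlpp1 KO 1 and Phlpp1/2 KO 1 the same changes were -2.10 (edgeR adjusted p = 1.14e-05) and -2.25 (edgeR adjusted p = 7.25e-06). Phlpp1 thus passed the 0.05 threshold on adjusted p together with 0.537% of all tested genes in Phlpp1 KO against WT and 0.235% in Phlpp1/2 KO against WT. Between the genotypes that lack it by label, Phlpp1 did not pass the test, with a log2 fold change of -0.16 (95% interval -0.37 to 0.06) in Phlpp1/2 KO against Phlpp1 KO and an edgeR adjusted p of 0.662, or -0.15 without the low-Xist libraries (edgeR adjusted p = 0.948).

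Phlpp2 kept a larger share of its WT level in its own knockouts than Phlpp1 did in its own. It had 11.1, 10.2 and 11.4 CPM in Phlpp1/2 KO 1 to 3 and 24.9, 22.8 and 24.9 CPM in Phlpp1 KO 1 to 3. Phlpp2 KO libraries had 17.1, 16.8 and 19.4 CPM and WT libraries had 28.1, 22.4 and 25.8 CPM. The Phlpp1/2 KO values were the lowest, the Phlpp2 KO values came next, and neither overlapped the WT values, whereas the Phlpp1 KO values fell within the WT range. Values lay wholly below those of WT in 8.87% of tested genes for Phlpp2 KO, and those of Phlpp1/2 KO lay wholly below those of Phlpp2 KO in 4.90%. As shares of the WT mean, Phlpp1/2 KO libraries kept 42.8%, Phlpp1 KO libraries 94.96% and Phlpp2 KO libraries 69.7%. Between 334 and 508 counts per library remained in the genotypes labelled as lacking Phlpp2.

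**Figure D1:**
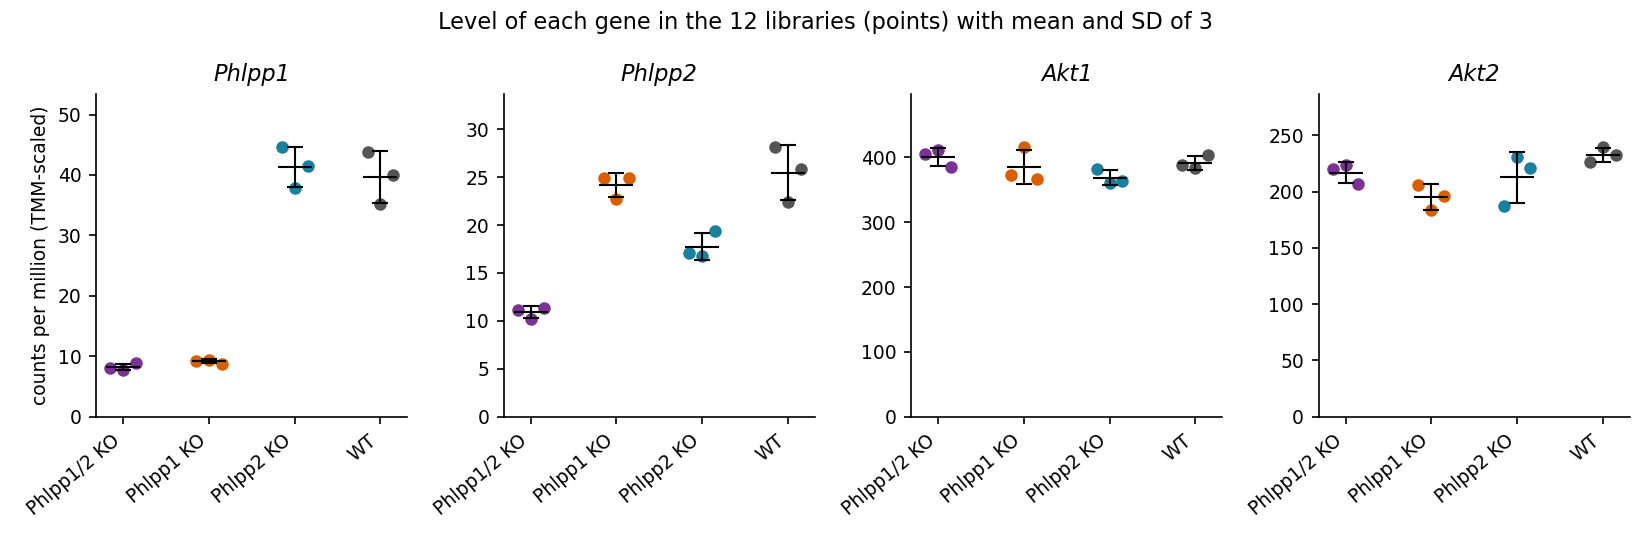
Level of Phlpp1, Phlpp2, Akt1 and Akt2 in each library, in CPM scaled by TMM factors, with 1 point per library and bars for the mean and SD of 3; every axis starts at 0. Phlpp2 had 10.2 to 11.4 CPM in Phlpp1/2 KO and 16.8 to 19.4 CPM in Phlpp2 KO. Over all libraries Akt1 ranged from 360 to 416 CPM and Akt2 from 183 to 239 CPM.

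The log2 fold change of Phlpp2 in Phlpp1/2 KO against WT was -1.22 ± 0.10 (SE, n = 3 each; edgeR adjusted p = 2.98e-05). Without the low-Xist libraries it was -1.22 with an edgeR adjusted p of 0.00118. In Phlpp2 KO against WT the change was -0.52 (95% interval -0.72 to -0.32), and Phlpp2 did not pass the test over all genes, with an edgeR adjusted p of 0.0607. That comparison called 0.121% of tested genes, and in it Phlpp2 ranked 24th by p. DESeq2 called the same change, with an adjusted p of 0.000647, as did edgeR without a filter on low counts, with an adjusted p of 0.00204. These settings also called many more genes, 317 and 110 against 20. Of 15 alternatives tried, 12 left Phlpp2 uncalled, limma-voom among them (adjusted p = 0.0939).

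Among the genotypes labelled as lacking Phlpp2, its remaining transcript was lower where Phlpp1 was also targeted. Phlpp1/2 KO libraries averaged 10.9 ± 0.611 CPM and Phlpp2 KO libraries 17.8 ± 1.43 CPM (SD, n = 3 each). The log2 fold change of Phlpp2 in Phlpp1/2 KO against Phlpp2 KO was -0.70 (95% interval -0.91 to -0.49; edgeR adjusted p = 0.0185), in a comparison that called 0.0724% of tested genes. The direction and size held without the low-Xist libraries, at -0.72, but the call did not (edgeR adjusted p = 0.272). The call was likewise absent without Phlpp1/2 KO 1 alone, without Phlpp1/2 KO 2 and without Phlpp2 KO 3, with edgeR adjusted p of 0.118, 0.0667 and 0.0928, and in a fit of these 6 libraries alone, with 0.230. Over all 15 alternatives tried the log2 fold change stayed between -0.75 and -0.64. Strain labels differed between these genotypes, with C57BL8 to C57BL10 in Phlpp1/2 KO against C57BL6 and C57BL7 in Phlpp2 KO. Strain as labelled and genotype therefore cannot be told apart, here or in Phlpp1/2 KO against WT or Phlpp1 KO. The interaction and the mean changes with Phlpp1 or Phlpp2 loss, given below, also use these Phlpp1/2 KO libraries and share this limit.

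Where Phlpp2 was intact by label, Phlpp1 loss came with no detectable change of Phlpp2. Phlpp1 KO libraries averaged 24.2 ± 1.23 CPM and WT libraries 25.5 ± 2.85 CPM (SD, n = 3 each). The log2 fold change was -0.073 (edgeR adjusted p = 0.699), and its 95% interval ran from -17.2% to 9.11% relative to WT. Phlpp1 in turn averaged 41.3 ± 3.33 CPM in Phlpp2 KO libraries and 39.7 ± 4.35 CPM in WT libraries. Its log2 fold change was 0.061 (edgeR adjusted p = 0.809), with a 95% interval from -8.61% to 19.1% relative to WT. Rises of the intact paralog beyond these upper bounds lay outside the intervals. Each sign also turned when 1 WT library was left out, to 0.023 for Phlpp2 without WT 1 and to -0.0094 for Phlpp1 without WT 2. The change of Phlpp2 in Phlpp1 KO was -0.075 without the low-Xist libraries (edgeR adjusted p = 0.786).

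**Figure D2:**
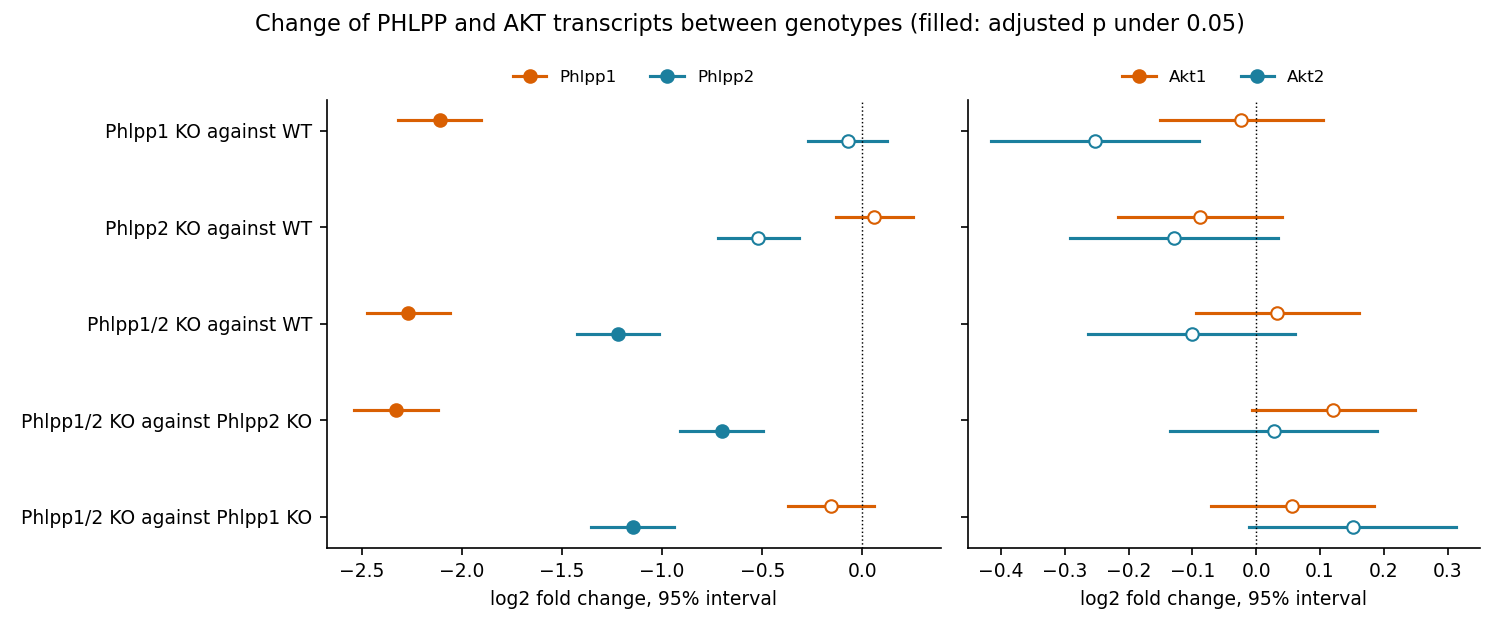
Log2 fold change with its 95% interval for the PHLPP genes (left) and for Akt1 and Akt2 (right) in 5 comparisons, from edgeR; filled points passed an adjusted p of 0.05, and the 2 panels have different scales. Phlpp2 fell by 1.22 on the log2 scale in Phlpp1/2 KO against WT and by 0.70 in Phlpp1/2 KO against Phlpp2 KO, and neither Akt1 nor Akt2 has a filled point.

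The difference between those 2 effects of Phlpp1 loss on Phlpp2 was tested as an interaction. It was -0.63 on the log2 scale (95% interval -0.92 to -0.34), with an unadjusted p of 0.000389 from edgeR's quasi-likelihood test but an adjusted p of 0.151, so it did not pass over all genes. That test called 0.0483% of tested genes. DESeq2 called the interaction, with an adjusted p of 0.00767, as did edgeR without a filter on low counts (adjusted p = 0.0113) and edgeR without Phlpp1/2 KO 3 (adjusted p = 0.0133). These settings also called 650, 183 and 1196 genes, against 8. The interaction was -0.64 without the low-Xist libraries (edgeR adjusted p = 0.366). Averaged over both backgrounds, Phlpp1 loss came with a Phlpp2 change of -0.39 ± 0.07 (SE; edgeR adjusted p = 0.0221), in a comparison that called 0.592% of genes. Without the low-Xist libraries this average was -0.40 and did not pass (edgeR adjusted p = 0.128). Phlpp2 loss, averaged in the same way, came with a Phlpp2 change of -0.83 ± 0.07 (SE; edgeR adjusted p = 4.90e-05; 0.0906% of genes called) and a Phlpp1 change of -0.048 (95% interval -0.19 to 0.096; edgeR adjusted p = 0.902). Those changes were -0.83 (edgeR adjusted p = 0.00164) and -0.037 (edgeR adjusted p = 0.970) without the low-Xist libraries. Phlpp2 in Phlpp1/2 KO against Phlpp1 KO fell by 1.15 on the log2 scale (edgeR adjusted p = 0.000304), and it ranked first by p in a comparison that called 0.0121% of genes. That change was -1.15 without the low-Xist libraries (edgeR adjusted p = 0.0172).

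The ratio of Phlpp1 to Phlpp2 per kilobase, which does not depend on how libraries are scaled, separated the genotypes. It was 0.942 ± 0.0303 in Phlpp1/2 KO, 0.475 ± 0.0406 in Phlpp1 KO, 2.92 ± 0.305 in Phlpp2 KO and 1.95 ± 0.0102 in WT libraries (SD, n = 3 each). The WT ratios were close to each other, from 1.94 to 1.96, although the coefficient of variation of the WT levels was 10.97% for Phlpp1 and 11.2% for Phlpp2. The mean ratio was 0.958 in Phlpp1/2 KO and 0.4804 in Phlpp1 KO without the low-Xist libraries. No knockout overlapped WT, and each exact two-sided permutation test against WT gave p = 0.1, the smallest that 3 against 3 libraries allow. In every knockout this ratio contains the loss of the targeted genes themselves, so its separation from WT was not an independent result.

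The summed PHLPP transcript level was lowest in Phlpp1/2 KO. The sum of Phlpp1 and Phlpp2 per kilobase was 2.51 ± 0.152 CPM in Phlpp1/2 KO, 4.22 ± 0.112 in Phlpp1 KO, 8.23 ± 0.545 in Phlpp2 KO and 8.89 ± 0.982 in WT libraries (SD, n = 3 each). Phlpp1 supplied 48.5% of that sum in Phlpp1/2 KO, 32.2% in Phlpp1 KO, 74.4% in Phlpp2 KO and 66.1% in WT. The summed level in Phlpp2 KO, 7.60 to 8.62 CPM per kilobase, overlapped the WT range of 7.86 to 9.82, while Phlpp1/2 KO and Phlpp1 KO lay below it in every library. The sums averaged 2.502 in Phlpp1/2 KO and 4.17 in Phlpp1 KO without the low-Xist libraries. These sums contain the loss of the targeted genes themselves, so their order was not an independent result. They also include the reads that remained of the deleted genes, divided by the exon length of the intact gene.

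**Figure D3:**
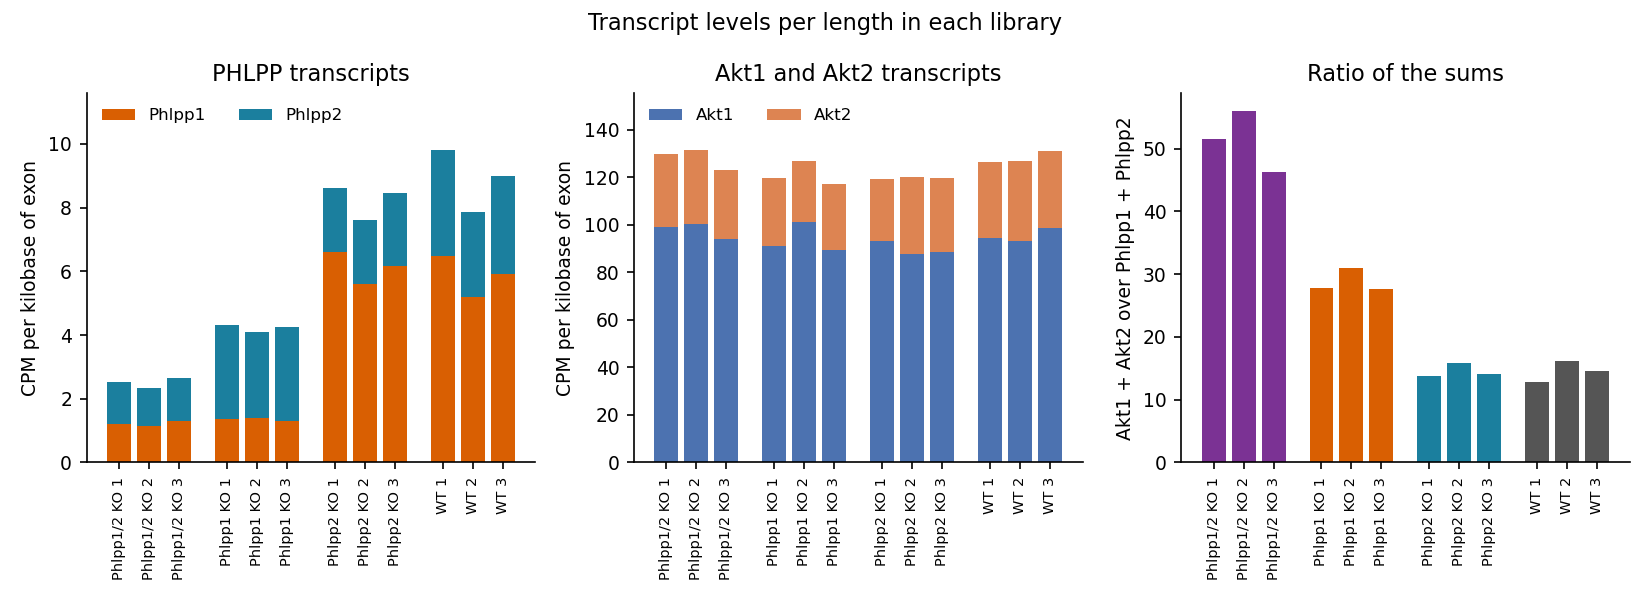
Stacked bars of transcript level per kilobase of exon in each library for the PHLPP genes (left) and for Akt1 and Akt2 (middle), and the ratio of the Akt1 and Akt2 sum to the PHLPP sum (right); bars start at 0. The PHLPP sum is lowest in Phlpp1/2 KO (2.35 to 2.65 CPM per kilobase) and the sum of Akt1 and Akt2 lies between 117 and 132 in all libraries.

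Akt1, the most abundant of the kinases and the AKT form tied to growth of the body in mice, had nearly the same level in all genotypes. It had 406, 411 and 385 CPM in Phlpp1/2 KO 1 to 3 and 373, 416 and 367 CPM in Phlpp1 KO 1 to 3. Phlpp2 KO libraries had 382, 359.95 and 364 CPM and WT libraries had 388, 383 and 404 CPM. Over all 12 libraries the highest value was 1.15 times the lowest. The Phlpp1/2 KO and Phlpp1 KO values overlapped those of WT, and the Phlpp2 KO values all lay below WT, the nearest pair being 382 CPM in Phlpp2 KO 1 and 383 CPM in WT 2. As given above, 8.87% of tested genes showed that order.

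Akt1 did not pass the test in any knockout against WT. The log2 fold change was 0.033 (95% interval -0.095 to 0.16; edgeR adjusted p = 0.879) in Phlpp1/2 KO, -0.023 (-0.15 to 0.10; edgeR adjusted p = 0.865) in Phlpp1 KO and -0.088 (-0.22 to 0.040; edgeR adjusted p = 0.553) in Phlpp2 KO. Without the low-Xist libraries it was 0.036 in Phlpp1/2 KO, and in Phlpp1 KO it was 0.019, with its sign turned. As percent changes relative to WT, the intervals ran from -6.37% to 11.8% in Phlpp1/2 KO, from -9.96% to 7.53% in Phlpp1 KO and from -13.9% to 2.82% in Phlpp2 KO. All 3 comparisons share the WT libraries.

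Akt2, the AKT form best known for insulin-driven glucose uptake, was lowest in Phlpp1 KO. It had 220.4, 224 and 207 CPM in Phlpp1/2 KO 1 to 3 and 206, 183 and 196 CPM in Phlpp1 KO 1 to 3. Phlpp2 KO libraries had 187, 230.4 and 221 CPM and WT libraries had 226, 239 and 232 CPM. All Phlpp1/2 KO and Phlpp1 KO values lay below all WT values, and Phlpp2 KO values overlapped them. That order was common in these data, since it held in 10.3% of tested genes for Phlpp1/2 KO and in 13.3% for Phlpp1 KO.

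The log2 fold change of Akt2 in Phlpp1 KO against WT was -0.25 (95% interval -0.41 to -0.090; 83.95% of the WT mean). Its unadjusted p was 0.00512 by edgeR's quasi-likelihood test and its adjusted p 0.110, so it did not pass over all genes, of which 20.4% had an unadjusted p under 0.05 in that comparison. DESeq2 called it, with an adjusted p of 0.0429, as did edgeR fitted to the 6 libraries compared, with 0.0359. Those settings also called many more genes, 990 and 1163 against 89. Without the low-Xist libraries the change was -0.27 (edgeR adjusted p = 0.186). The change in Phlpp1/2 KO against WT was -0.10 (-0.26 to 0.061; edgeR adjusted p = 0.656), with -0.10 also without those libraries, and in Phlpp2 KO against WT it was -0.13 (-0.29 to 0.034; edgeR adjusted p = 0.480). Akt2 was 0.15 higher in Phlpp1/2 KO than in Phlpp1 KO on the log2 scale (-0.011 to 0.31; edgeR adjusted p = 0.626), and the interaction of both losses was 0.28 (edgeR adjusted p = 0.231). These values were 0.17 (edgeR adjusted p = 0.948) and 0.29 (edgeR adjusted p = 0.476) without the low-Xist libraries.

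Added together, Akt1 and Akt2 came to 128.2 ± 4.57 CPM per kilobase in Phlpp1/2 KO, 121.4 ± 5.12 in Phlpp1 KO, 119.7 ± 0.398 in Phlpp2 KO and 128.2 ± 2.57 in WT (SD, n = 3 each). All Phlpp2 KO sums lay below all WT sums, and those of the other knockouts overlapped WT. Among single genes, 8.87% of those tested lay wholly below WT in Phlpp2 KO. The sums were not tested. The ratio of Akt1 to Akt2 per kilobase was 3.22 ± 0.0272 in Phlpp1/2 KO, 3.45 ± 0.432 in Phlpp1 KO, 3.05 ± 0.442 in Phlpp2 KO and 2.93 ± 0.130 in WT. Exact two-sided permutation tests against WT gave p = 0.1 for Phlpp1/2 KO, 0.1 for Phlpp1 KO and 0.9 for Phlpp2 KO, where 0.1 is the smallest possible. With the low-Xist libraries left out, the sum averaged 127.3 CPM per kilobase in Phlpp1/2 KO and 122.1 in Phlpp1 KO, and the ratio of Akt1 to Akt2 averaged 3.22 in Phlpp1/2 KO and 3.599 in Phlpp1 KO.

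The summed level of Akt1 and Akt2 divided by the summed level of Phlpp1 and Phlpp2 was 51.3 ± 4.83 in Phlpp1/2 KO, 28.8 ± 1.93 in Phlpp1 KO, 14.6 ± 1.049 in Phlpp2 KO and 14.5 ± 1.64 in WT (SD, n = 3 each). Phlpp1/2 KO and Phlpp1 KO did not overlap WT on this ratio, and Phlpp2 KO did. It averaged 51.2 in Phlpp1/2 KO and 29.3 in Phlpp1 KO without the low-Xist libraries. The ratio is one of transcripts, and it contains the loss of the targeted genes themselves.

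The remaining genes of the pathway were followed through lists of kinases that phosphorylate AKT with their partners, other phosphatases, partners of PHLPP and of AKT, and direct substrates. Of the 80 tested genes, which do not include the 4 genes themselves, 0 passed an adjusted p of 0.05 by edgeR in Phlpp1/2 KO, 0 in Phlpp1 KO and 0 in Phlpp2 KO against WT. At an unadjusted p under 0.05 there were 8 in Phlpp1/2 KO, 23 in Phlpp1 KO and 14 in Phlpp2 KO. These are 10%, 28.8% and 17.5% of the 80 genes, beside 11.1%, 20.4% and 13.8% of all tested genes. The median log2 fold change of the 80 genes was 0.00027 in Phlpp1/2 KO, -0.014 in Phlpp1 KO and -0.050 in Phlpp2 KO. The medians over all tested genes were -0.0014 in Phlpp1/2 KO, -0.013 in Phlpp1 KO and -0.017 in Phlpp2 KO. With the low-Xist libraries left out, 0 of the 80 genes passed by edgeR in each of these comparisons, and 8 in Phlpp1/2 KO, 15 in Phlpp1 KO and 12 in Phlpp2 KO had an unadjusted p under 0.05. Ppm1n and Foxo6 were too low to be tested.

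**Figure D4:**
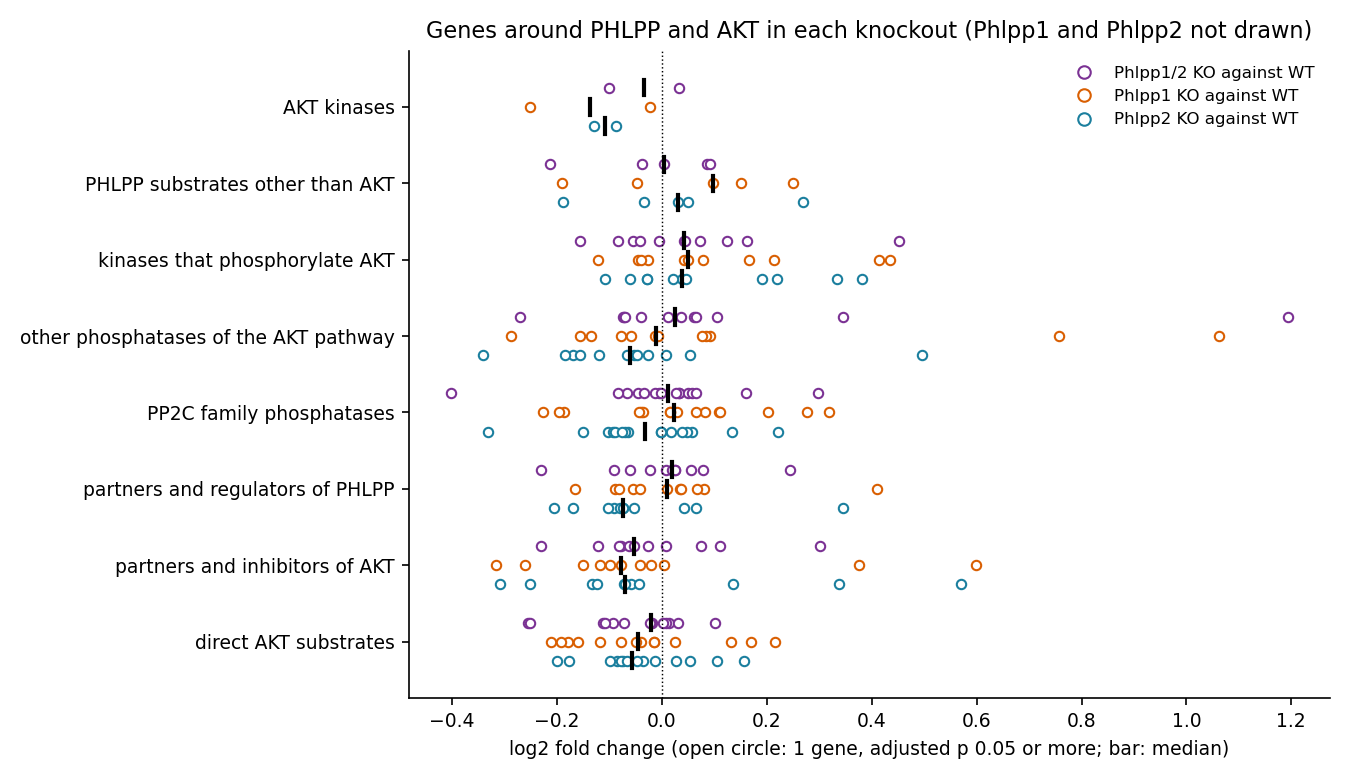
Log2 fold change of each tested pathway gene, Akt1 and Akt2 included, in each knockout against WT, grouped by list, with 1 open circle per gene and a bar at each list's median; no gene drawn passed an adjusted p of 0.05. Most genes lie within 0.4 of 0, and the points farthest to the right are Inpp5d at 1.19 in Phlpp1/2 KO and 1.06 in Phlpp1 KO.

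Of the 5 PHLPP substrates other than AKT, Rps6kb1, which encodes S6 kinase, had the smallest p in both single knockouts. It had 57.7, 58.9 and 60.9 CPM in Phlpp1 KO, 63.4, 54.8 and 61.6 CPM in Phlpp2 KO and 51.8, 47.96 and 49.5 CPM in WT libraries. All values of both single knockouts lay above WT, an order held by 14.9% of tested genes for Phlpp1 KO and 10.3% for Phlpp2 KO, with log2 fold changes of 0.25 (edgeR adjusted p = 0.127) and 0.27 (edgeR adjusted p = 0.219). The Phlpp1/2 KO values of Rps6kb1, 47.8, 50.6 and 59.9 CPM, overlapped WT, with a log2 fold change of 0.085 (edgeR adjusted p = 0.749). Among these substrates, the smallest p in Phlpp1/2 KO belonged to Stk4, the MST1 kinase, at 0.092 (edgeR adjusted p = 0.605).

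Among the 11 listed genes for proteins that act in the phosphorylation of AKT, which include PDK1 and subunits of mTOR complex 2, Tbk1 had the smallest p throughout. Not all of these proteins are kinases. Its log2 fold change was 0.16 in Phlpp1/2 KO (edgeR adjusted p = 0.404), 0.21 in Phlpp1 KO (edgeR adjusted p = 0.122) and 0.22 in Phlpp2 KO (edgeR adjusted p = 0.228). The list's median was 0.042 in Phlpp1/2 KO, 0.051 in Phlpp1 KO and 0.038 in Phlpp2 KO.

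The 12 other phosphatases reported act on phosphoinositides or, as protein phosphatase 2A does, on AKT itself. Inpp4b, a phosphatase of phosphatidylinositol 3,4-bisphosphate, had 5.22, 7.65 and 7.48 CPM in Phlpp1 KO and 4.80, 3.57 and 3.71 CPM in WT libraries, so that the groups did not overlap, as 14.9% of tested genes did in that direction. Its log2 fold change of 0.76 ± 0.18 (SE) had an edgeR adjusted p of 0.0793, and it was 0.94 without the low-Xist libraries (edgeR adjusted p = 0.0555). Ppp2r1a, the scaffold subunit of protein phosphatase 2A, was 0.16 lower on the log2 scale in Phlpp2 KO than in WT, with an edgeR adjusted p of 0.237.

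Inpp5d, which encodes the lipid phosphatase SHIP1 and is best known from blood cells, was higher in the genotypes lacking Phlpp1. It had 3.29, 1.90 and 2.33 CPM in Phlpp1/2 KO, 1.99, 2.07 and 2.82 CPM in Phlpp1 KO, 0.832, 1.32 and 0.383 CPM in Phlpp2 KO and 1.04, 1.12 and 1.11 CPM in WT libraries. Every library lacking Phlpp1 by label exceeded every other library, an order held by 0.459% of all tested genes. The mean change with Phlpp1 loss was 1.298 ± 0.23 on the log2 scale (SE; edgeR adjusted p = 0.0242), the only 1 of the 80 pathway genes to pass in that comparison, which called 0.592% of all tested genes, while the changes in Phlpp1/2 KO (1.19; edgeR adjusted p = 0.216) and Phlpp1 KO (1.06; edgeR adjusted p = 0.113) did not pass on their own. The mean change was 1.23 and did not pass without the low-Xist libraries (edgeR adjusted p = 0.103). The levels were low, at 10 to 102 counts per library. The 9 macrophage markers, of which 6 averaged at least 1 CPM, summed to 53.6 to 73.2 CPM in Phlpp1/2 KO, 49.7 to 55.0 in Phlpp1 KO, 51.6 to 70.2 in Phlpp2 KO and 58.0 to 65.3 in WT. The highest macrophage sum was thus in Phlpp1/2 KO and the lowest in Phlpp1 KO. Whether macrophage content bears on the level of Inpp5d was not tested. Inpp5d lies on the same chromosome as Phlpp1, 18.6 Mb away, and what part of the difference goes with its position was not tested.

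Among the other tested PP2C phosphatases, none passed in any knockout against WT by edgeR, and Pdp1 had the smallest p throughout. Its log2 fold change was 0.30 in Phlpp1/2 KO, 0.32 in Phlpp1 KO and 0.22 in Phlpp2 KO, with edgeR adjusted p of 0.346, 0.143 and 0.409. Of the 11 partners and regulators of PHLPP reported, which include the ubiquitin ligase subunit Btrc and the deubiquitinase Usp46, Usp1, which encodes another deubiquitinase, had the smallest p in the single knockouts. It had 118.7, 121.8 and 129.3 CPM in Phlpp1 KO, 119.02, 109.4 and 125.2 CPM in Phlpp2 KO and 100.2, 88.9 and 89.2 CPM in WT libraries. Every value of the single knockouts lay above WT, as for 14.9% of tested genes in Phlpp1 KO and 10.3% in Phlpp2 KO, with log2 fold changes of 0.41 (edgeR adjusted p = 0.108) and 0.35 (edgeR adjusted p = 0.243). The Phlpp1/2 KO values of Usp1, 97.5, 95.3 and 136.5 CPM, overlapped WT, with a log2 fold change of 0.24 (edgeR adjusted p = 0.476). In Phlpp1/2 KO, Slc9a3r2, a scaffold of the NHERF family, had the smallest p of this list at -0.23 (edgeR adjusted p = 0.430).

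Of the 11 partners and inhibitors of AKT, the chaperone gene Hsp90aa1 had the smallest p in the single knockouts, at 0.60 in Phlpp1 KO (edgeR adjusted p = 0.152) and 0.57 in Phlpp2 KO (edgeR adjusted p = 0.277). Its Phlpp1/2 KO values overlapped WT, with a log2 fold change of 0.30 (edgeR adjusted p = 0.637). Phlda3, an inhibitor that competes with AKT for membrane lipids, had the smallest p in Phlpp1/2 KO at -0.12 (edgeR adjusted p = 0.469). Among 14 tested direct substrates of AKT, 5 were higher and 9 lower in Phlpp1/2 KO than in WT, with 0 passing by edgeR. In Phlpp1 KO and in Phlpp2 KO, 4 were higher and 10 lower, again with 0 passing in each. Of all tested genes, 49.6% were higher in Phlpp1/2 KO, 47.7% in Phlpp1 KO and 46.1% in Phlpp2 KO. The median log2 fold change of these substrates was -0.021 in Phlpp1/2 KO, -0.045 in Phlpp1 KO and -0.057 in Phlpp2 KO. Foxo3, a transcription factor that AKT keeps out of the nucleus, had 91.7, 87.4 and 91.5 CPM in Phlpp1/2 KO, 95.6, 88.4 and 94.2 CPM in Phlpp1 KO and 108, 99.9 and 114 CPM in WT libraries. All values of both groups lay below WT, as for 10.3% of tested genes in Phlpp1/2 KO and 13.3% in Phlpp1 KO, with log2 fold changes of -0.25 (edgeR adjusted p = 0.204) and -0.21 (edgeR adjusted p = 0.117). Akt1s1, which encodes the mTORC1 inhibitor PRAS40, was 0.20 lower on the log2 scale in Phlpp2 KO (edgeR adjusted p = 0.228). With the low-Xist libraries left out, the changes of Foxo3 were -0.25 (edgeR adjusted p = 0.478) and -0.21 (edgeR adjusted p = 0.219). In Phlpp1 KO, again without them, Rps6kb1 stood at 0.29, Tbk1 at 0.28, Pdp1 at 0.41, Usp1 at 0.46 and Hsp90aa1 at 0.73 on the log2 scale, with edgeR adjusted p between 0.155 and 0.181. In Phlpp1/2 KO, Stk4 stood at 0.11, Tbk1 at 0.19, Pdp1 at 0.37, Slc9a3r2 at -0.22 and Phlda3 at -0.13, with edgeR adjusted p between 0.483 and 0.638.

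The genes whose log2 CPM followed each member most closely over the 12 libraries were ranked by Pearson's r among 11969 genes, as a description of these libraries, whose genotypes are shared by all points. For Phlpp1 the nearest were D2hgdh (r = 0.98), Wdfy1 (0.95), Usp40 (0.94), Bace2 (0.91) and Ankrd44 (0.89). Over the 10 libraries that are not low in Xist, r was 0.98, 0.93, 0.93, 0.90 and 0.89 in the same order. All but Bace2 lie on chromosome 1, the chromosome of Phlpp1, at 12.3 Mb for D2hgdh, 26.5 Mb for Wdfy1, 18.2 Mb for Usp40 and 51.5 Mb for Ankrd44. D2hgdh averaged 5.14 CPM in Phlpp1/2 KO, 5.00 in Phlpp1 KO, 9.97 in Phlpp2 KO and 10.7 in WT. For Phlpp2 the nearest were Ndrg4 (0.94), Ncoa1 (0.86), Setd7 (0.86), Synrg (0.85) and Rab3gap1 (0.84), of which Ndrg4 lies on the same chromosome, 14.2 Mb away. Ndrg4 averaged 11.9 CPM in Phlpp1/2 KO, 16.8 in Phlpp1 KO, 14.4 in Phlpp2 KO and 18.9 in WT. Over the same 10 libraries, r with Phlpp2 was 0.93 for Ndrg4, 0.89 for Ncoa1, 0.87 for Setd7, 0.89 for Synrg and 0.81 for Rab3gap1.

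For Akt1 the nearest genes were Mlf2 (r = 0.96), Adrm1, Dohh, Cdk18 and Oraov1, and for Akt2 they were Zfp423 (0.96), Map1lc3b, Id3, Mov10 and Jak3. None of these lies on the chromosome of its AKT gene. Over the 10 libraries that are not low in Xist, r was 0.96 for Mlf2 with Akt1 and 0.96 for Zfp423 with Akt2. The members themselves followed each other weakly over the 12 libraries, with r between -0.36 for Akt1 with Phlpp1 and 0.43 for Phlpp1 with Phlpp2. The knockouts themselves enter these values.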

How the data were processed

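The authors deposited raw counts per gene for 12 libraries, prepared with the NEBNext Ultra II RNA kit per the labels' protocols. Per the submitters' processing notes, bcl2fastq 2.17, STAR 2.5.2b, featureCounts of Subread 1.5.2 and the mm10 build were used. How strand and multiply matching reads were treated, and with which annotation, is not given in the sources used here. No column was left unused. Of the 49315 genes, 174 had no symbol (0.00419% of counts), and 49056 matched GENCODE vM21, from which positions, exon lengths and coding sequences came.

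From these counts, edgeR 4.0.16 in R 4.3.3 scaled libraries by TMM factors and tested the 16565 genes left by its filter on low counts, which held at least 99.91% of each library's counts. A single model by genotype was fitted to all 12 libraries, with 8 residual degrees of freedom and a common biological coefficient of variation of 0.105, and tested by the robust quasi-likelihood method with Benjamini-Hochberg adjustment and called at an adjusted p under 0.05. There were 8 comparisons. SE is the log2 fold change over the square root of F, and 95% intervals use it with the total degrees of freedom. SD is over 3 libraries, and CPM uses TMM-scaled library sizes. The fit was tested on simulated counts first. Alternatives used limma 3.58.1 (voom) and DESeq2 1.42.0. Copies were searched with BLAST+ 2.17.0 among reference transcripts. Replicates within a genotype differed by more than counting noise, and each was counted as a sample of its own.

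The members, the pathway and marker lists and the tests were chosen with earlier results of these data known. From each list, the text names every gene called in a knockout against WT, and otherwise the gene with the smallest p given a mean of at least 1 CPM. The closest 5 genes by Pearson's r of log2(CPM + 0.5) are named for each member, leaving out predicted genes, Riken clones and pseudogenes. Some genes of the lists are not reported here.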

Additional observations from a re-analysis of the deposited data

How the results depend on the processing

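Of 540 values of the 4 genes recomputed under alternatives over 32 results, 508 kept their direction and side of the threshold, 12 lost a call, 9 gained one and 11 turned sign. The cause of a change was not tested. Where libraries were left out, the fit also rested on fewer of them. Phlpp2 in Phlpp2 KO against WT gained a call without the filter on low counts (-0.51), with DESeq2 (-0.51) and with the replicate block (-0.52, edgeR adjusted p = 0.0206), and ranged from -0.59 to -0.43 with single libraries left out. Akt2 in Phlpp1 KO against WT gained one with DESeq2 (-0.25) and in the fit of the libraries compared (-0.25). Phlpp2 in Phlpp1/2 KO against Phlpp2 KO lost its call without both low-Xist libraries (-0.72) and in the fit of the libraries compared (-0.70), and ranged from -0.75 to -0.64 with single libraries left out. Small changes turned sign: Akt1 in Phlpp1 KO against WT without both low-Xist libraries (0.019) and between -0.063 and 0.020 with single libraries left out, Phlpp2 in Phlpp1 KO against WT (-0.15 to 0.023) and Phlpp1 in Phlpp2 KO against WT (-0.0094 to 0.16). Akt2 in Phlpp1/2 KO against Phlpp2 KO ranged from -0.057 to 0.080, and the mean changes with Phlpp2 loss from -0.030 to 0.020 for Akt1 and from -0.014 to 0.053 for Akt2. The interaction for Phlpp2 passed in 4 of 20 alternatives, with the replicate block (-0.63, edgeR adjusted p = 0.0268) as well as those named above, and its mean change with Phlpp1 loss failed in 7 of 20.

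With single libraries left out, the log2 ratio of Phlpp1 to Phlpp2 against WT ranged from -1.07 to -1.02 in Phlpp1/2 KO, from -2.11 to -1.99 in Phlpp1 KO and from 0.50 to 0.64 in Phlpp2 KO. That of Akt1 to Akt2 ranged from 0.13 to 0.29 in Phlpp1 KO and from -0.069 to 0.12 in Phlpp2 KO. The count of genes called for the interaction, 8, became 183 without the filter, 650 with DESeq2, 308 with the block, 4 without the low-Xist libraries, 0 among protein-coding nuclear genes, 71 without Phlpp2 KO 2 and 1196 without Phlpp1/2 KO 3. In Phlpp1 KO against WT the count of 89 became 461 without the filter, 990 with DESeq2, 245 with the replicate block, 1163 in the fit of the libraries compared and 18 without the low-Xist libraries. In Phlpp2 KO against WT the count of 20 became 110 without the filter, 317 with DESeq2, 84 with the block, 13 with limma-voom and 2 among protein-coding nuclear genes. In Phlpp1/2 KO against WT the count of 39 became 102 without the filter, 168 with DESeq2 and 16 among protein-coding nuclear genes.

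Replicate numbers did not clearly pair the libraries. Of same-numbered pairs, 6 of 18 correlated above 0.1 (r from -0.22 to 0.40), beside 9 of 36 pairs with different numbers (r from -0.37 to 0.35). For 5 of 12 libraries, the best match in another group had their own number. With 3 libraries a group, the 95% intervals against WT reached from -13.9% to 11.8% for Akt1 over the 3 knockouts and from -17.2% to 19.1% for the intact paralogs.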
